A study of Mus musculus with 24 samples.

Results

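The 9 genes described here encode 6 laminin chains, Lama1, Lama3, Lama5, Lamb1, Lamb3 and Lamc1, and 3 integrin subunits of epithelial cells, Itga3, Itga6 and Itgb4. They were chosen by name, with earlier results of these data known, and matched by Ensembl identifier. Each was among the 63862 genes and assembled loci listed in all 20 libraries of mouse lacrimal gland (LG) and lacrimal gland stem cells (LGSCs). The study sequenced poly(A) RNA of LGSC spheres over time in culture and of whole LGs before birth and in the adult.

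All samples were from C57BL/6 mice with no transgene or deletion named in the labels. The LGSCs came from LGs of mice 6 to 8 weeks old and were grown at passage 2 as spheres in Matrigel mixed 1:1 with a serum-free medium (LGSCM) containing EGF, FGF10, Wnt3A and Y-27632. Matrigel is a basement membrane extract that itself consists largely of laminin protein, so every sphere was surrounded by laminin that its cells had not made. Spheres were taken at day 5 (2 libraries) and at days 7, 10 and 14 (3 libraries each), and whole LGs at the embryonic stages E17.5 and E19.5 and in the adult (3 libraries each). The sources do not say whether libraries of a group came from separate mice or cultures, so p-values measure only the spread between these libraries. Spheres cultured for 7 days at passage 10 gave a single library, which entered no test and is given by its values.

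Laminins are cross-shaped trimers of an alpha, a beta and a gamma chain and are a main component of basement membranes. Lama1, Lamb1 and Lamc1 encode the chains of laminin-111, a laminin of early epithelial development. Lama5 with the same beta and gamma chains gives laminin-511, the main laminin of mature epithelia, and Lama3 and Lamb3 encode chains of laminin-332, which anchors epithelial cells. Epithelial cells bind these laminins through integrins: Itga3 and Itga6 encode alpha subunits that pair with the beta subunit of Itgb1, and the Itga6 product also pairs with that of Itgb4 in the hemidesmosome, which ties the cell to its basement membrane.

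Lamb1 and Lamc1 were listed on a very different scale from the other members in these tables, and a property of the tables bears on that. Values were FPKM, fragments per kilobase of gene scaled to the size of the library, and so a level per gene length. Of 5327 genes with at least 10 FPKM in the passage 10 library, 2691 (50.5%) had a day 7 mean below 10% of that level at passage 2, and 695 were listed at 0 in all 3 day 7 libraries. Among them were Epcam and Krt8, which define epithelial cells and were listed at 0 in all 20 libraries against 261 and 414 FPKM at passage 10. Eef1a1, a translation factor that every cell uses, did not exceed 0.562 FPKM in the 20 libraries against 3461 FPKM at passage 10, and 48 of 85 ribosomal protein genes were below 10%. Whether these values reflect the cells or the making of the tables was not tested.

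Of the 8 members with at least 10 FPKM at passage 10, 6 were in that low class at day 7. Lama5 stood at 0% of its passage 10 level, Lamb3 at 0.194%, Itga3 at 0.444%, Itgb4 at 0.507%, Itga6 at 2.04% and Lama3 at 3.26%. Lamb1 and Lamc1 stood at 300% and 255%. Lama1, with 0.826 FPKM at passage 10, stood at 323%. The listed values of the 6 low members are therefore reported below as they stand, with the number of reads behind them where that is small.

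**Figure D1:**
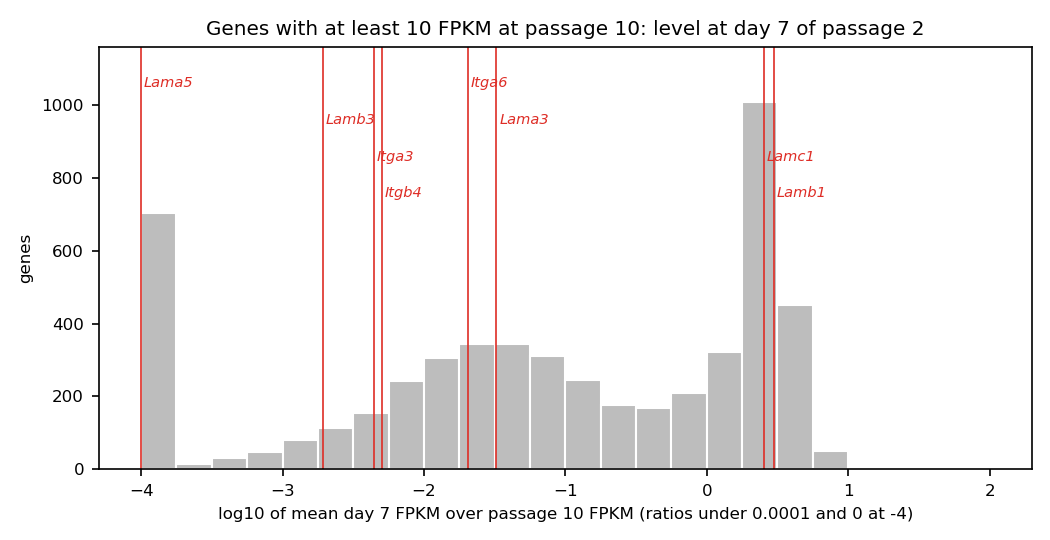
Genes with at least 10 FPKM in the passage 10 LGSC library (5327 genes), by the log10 ratio of the mean day 7 level at passage 2 to the passage 10 level; bars count genes, and red lines mark 8 of the members (Lama1 was below 10 FPKM at passage 10 and is not shown). Lamb1 and Lamc1 lie in the right-hand group of bars, whereas Itga3, Itga6, Itgb4, Lama3 and Lamb3 lie in the broad left-hand group and Lama5 at the far left, with genes listed at 0.

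Reads recovered from the FPKM steps numbered 6434281 to 9257025 in the 20 libraries and 25172949 at passage 10. In adult LG replicates 1 and 2, 60.4% and 59.6% of all reads fell on the 10 top genes, against 31.3% in adult LG replicate 3 and 5.44% to 8.07% in the other 17 libraries. Summed FPKM of 8 fibroblast and mesenchyme markers was 0.511 to 1.82 in the spheres, 4719 to 5695 in the embryonic LGs and 165 to 324 in the adult LGs. That of 6 basal and myoepithelial markers was 13.7 to 186 FPKM in the spheres, 141 to 298 at E17.5, 1012 to 1098 at E19.5 and 121 to 609 in the adult. In tissue it was mostly Acta2 (105 to 1093 FPKM), with Cnn1 at 1.14 to 84.7 FPKM. The basal markers Krt5, Krt14 and Trp63 did not exceed 0.781 FPKM there. In the spheres Acta2 was at 1.02 to 180 FPKM, Krt14 at 3.35 to 17.8 FPKM and Krt5 at 0.395 to 5.52 FPKM. Trp63 did not exceed 0.750 FPKM in them. At passage 10, Krt14, Krt5 and Trp63 were at 7065, 4931 and 42.9 FPKM. The sum of 6 endothelial markers was 0 to 0.419, 141 to 231 and 70.6 to 210, and that of 6 leukocyte markers was 1.23 to 3.74, 112 to 169 and 718 to 1442. Of 6 epithelial markers, Cdh1 and Krt18 were at 121 FPKM or more in all 20 libraries, and Cldn7 was at 8.68 to 90.3 FPKM. Krt7 was at 0.565 to 17.4 FPKM, and Epcam and Krt8 were at 0 as above. In whole LG, fewer cells of a type and less RNA per cell cannot be told apart.

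**Figure D2:**
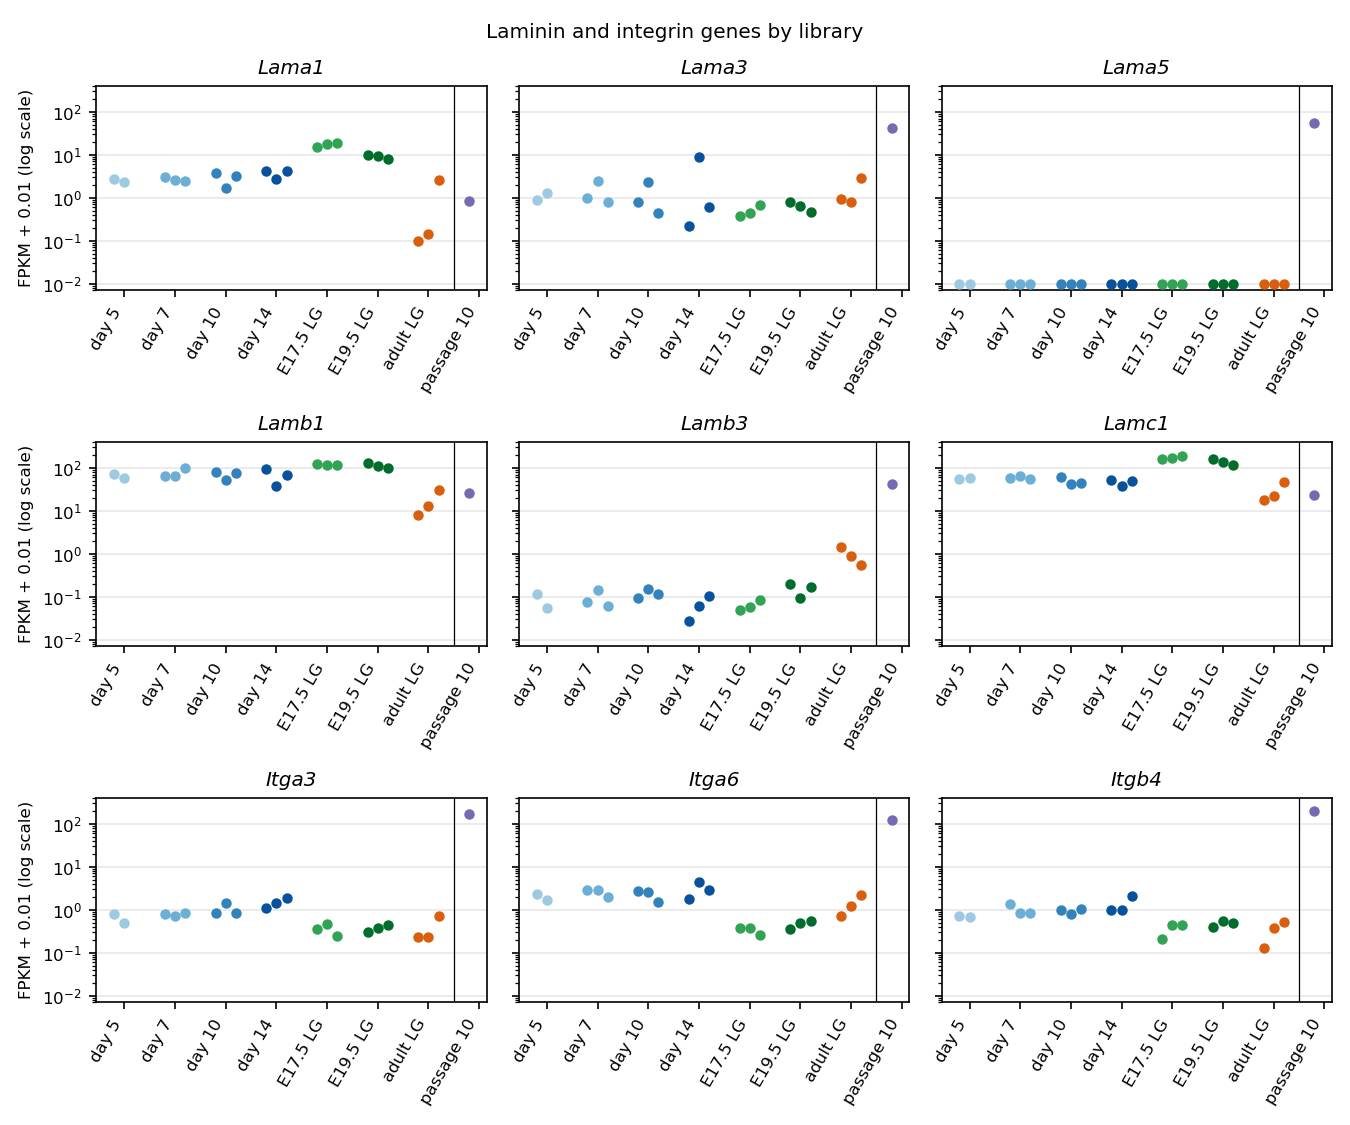
FPKM of the 9 genes in each library (1 point a library, with 0.01 added so that 0 can be drawn on the log axis), for spheres of passage 2 by culture day, whole LG by stage and, right of the line, the single passage 10 library. Lamb1 and Lamc1 stay above 7 FPKM everywhere, Lama5 is at 0 in all 20 libraries, and Lama3, Lama5, Lamb3, Itga3, Itga6 and Itgb4 are highest at passage 10.

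Lamb1 and Lamc1 were the most abundant of the 9 genes in all 20 libraries, in spheres as well as in tissue. Lamb1 (ENSMUSG00000002900), which encodes the beta chain shared by laminin-111 and laminin-511, stood at 72.0 and 58.6 FPKM in the day 5 libraries and at 65.9, 65.4 and 99.2 FPKM in those of day 7. Day 10 libraries held 81.6, 51.2 and 76.3 FPKM of Lamb1, and day 14 libraries 94.0, 38.8 and 66.9 FPKM, so the 4 days overlapped. In tissue, Lamb1 was at 120, 118 and 114 FPKM at E17.5, at 130, 110 and 98.0 FPKM at E19.5 and at 7.98, 13.2 and 30.4 FPKM in the adult. Every sphere library was above every adult LG library, and the day 7 library with 99.2 FPKM overlapped with E19.5. In order of mean level, E17.5 (118 ± 3.31 FPKM, SD, n = 3) came first, followed by E19.5 (113 ± 16.4), day 7 (76.8 ± 19.4), day 10 (69.7 ± 16.2), day 14 (66.6 ± 27.6) and day 5 (65.3 ± 9.45, n = 2). Each of these overlapped with the next, and only adult LG (17.2 ± 11.8) was separate at the end of the order.

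Lamc1 (ENSMUSG00000026478), the gamma chain of both trimers, stood at 54.4 and 56.8 FPKM in the day 5 libraries and at 58.2, 63.2 and 55.5 FPKM in those of day 7. Day 10 libraries held 60.5, 41.3 and 44.2 FPKM of Lamc1, and day 14 libraries 51.3, 36.9 and 48.4 FPKM. At E17.5 it was at 163, 170 and 189 FPKM, at E19.5 at 160, 139 and 115 FPKM and in the adult at 17.9, 22.0 and 46.0 FPKM. The embryonic LGs were above all spheres without overlap, the E17.5 libraries were all above those of E19.5, and adult LG replicate 3 reached into the range of days 10 and 14.

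The balance of these chains differed between spheres and tissue. The ratio of Lamb1 to Lamc1 FPKM was above 1 in all 11 sphere libraries (1.03 to 1.83) and below 1 in all 9 tissue libraries (0.445 to 0.854), and was 1.11 at passage 10. The ranges did not overlap. The ratio was highest at days 10 and 14 (1.44 ± 0.256 and 1.42 ± 0.392, n = 3 each), where it was within the spread of day 7 (1.32 ± 0.411), and among tissues it was 0.678 ± 0.0685 at E17.5, 0.820 ± 0.0325 at E19.5 and 0.569 ± 0.112 in the adult. This ratio was examined after its values were seen and was not tested.

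Lama1 (ENSMUSG00000032796), the alpha chain that defines laminin-111, was highest before birth. It was at 15.5, 18.1 and 18.5 FPKM at E17.5 and at 9.85, 9.15 and 7.77 FPKM at E19.5. Sphere libraries of day 5 held 2.76 and 2.31 FPKM of Lama1, those of day 7 held 2.95, 2.58 and 2.46, those of day 10 held 3.72, 1.72 and 3.21 and those of day 14 held 4.21, 2.68 and 4.08. In the adult LG it was at 0.0871, 0.133 and 2.59 FPKM, so that replicate 3 was 23.6 times the mean of the others and as high as several spheres. The E17.5, E19.5 and sphere ranges followed one another without overlap. The same adult library was 2.88 times the mean of the others for Lamb1 and 2.30 times for Lamc1. It also held more of other markers, with 609 FPKM of 6 basal and myoepithelial markers against 121 and 125 FPKM. That sum was nearly all Acta2 (524 FPKM) and Cnn1 (84.7 FPKM), and Krt5, Krt14 and Trp63 did not exceed 0.597 FPKM in adult LG. The same library held 210 FPKM of 6 endothelial markers against 70.6 and 95.1 FPKM, and 324 FPKM of 8 mesenchyme markers against 165 and 256 FPKM. Their part in its laminin levels was not tested.

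**Figure D3:**
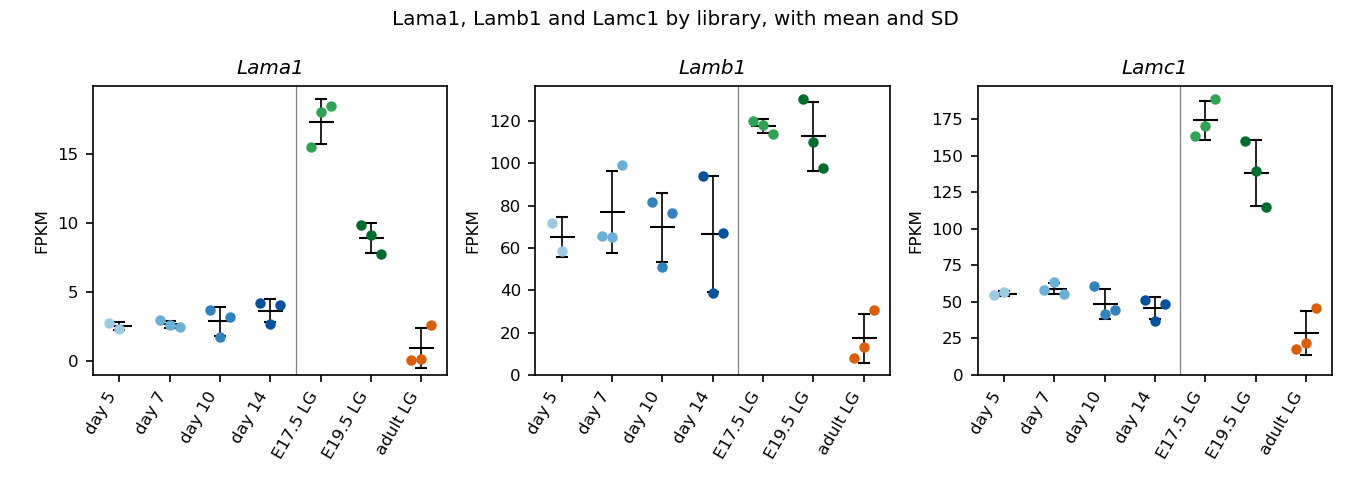
FPKM of Lama1, Lamb1 and Lamc1 in each of 20 libraries on linear axes (points), with the group mean and SD (bar and whiskers; n = 2 at day 5, n = 3 elsewhere); the grey line separates spheres from whole LG. Lama1 at E17.5 (15.5 to 18.5) stands above E19.5 (7.77 to 9.85) and the spheres (1.72 to 4.21), whereas the spheres hold 38.8 to 99.2 FPKM of Lamb1 against 7.98 to 30.4 in adult LG.

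A promoter window was at hand for Lama5, Lamb1, Lamb3 and Itga3. The 250 bases before the RefSeq start are shown for Lamb1, the beta chain with the highest level in the spheres, and for Lamb3, the beta chain of laminin-332 with few reads there. They lie at chr12:31265043-31265292 and chr1:193301744-193301993 (GRCm38.p6, both on the plus strand), and capitals mark GGGCGG or its reverse complement CCGCCC.
Lamb1: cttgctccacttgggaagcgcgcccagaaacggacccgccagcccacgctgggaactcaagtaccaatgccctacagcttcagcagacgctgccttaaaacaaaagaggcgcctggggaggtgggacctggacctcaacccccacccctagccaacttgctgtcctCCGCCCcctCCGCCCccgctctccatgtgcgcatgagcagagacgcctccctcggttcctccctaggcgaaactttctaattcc
Lamb3: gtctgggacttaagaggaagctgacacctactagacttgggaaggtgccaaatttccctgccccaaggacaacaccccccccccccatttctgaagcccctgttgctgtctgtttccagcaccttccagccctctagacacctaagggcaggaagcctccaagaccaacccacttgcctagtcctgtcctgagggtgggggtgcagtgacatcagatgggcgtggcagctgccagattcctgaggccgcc
The Lamb1 window held 2 such matches and the Lamb3 window none, and 32.7% of 32851 windows of this length held at least 1. TGANTCA, searched in the same way, was found in neither window and in 6.75% of all windows. These are matches of letters and say nothing of binding.

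The alpha chain of laminin-511, Lama5 (ENSMUSG00000015647), was listed at 0 in all 20 libraries and could not be compared. At passage 10 it was at 53.9 FPKM, the highest of the laminin chains there, next to 25.6 FPKM of Lamb1 and 23.2 FPKM of Lamc1. Since genes used by every cell were also at 0, the value of 0 is given as listed.

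Lama3 and Lamb3 were low in the 20 libraries and high at passage 10, where they were at 42.6 and 43.2 FPKM. Lamb3 (ENSMUSG00000026639) rested on 1 to 7 reads in each sphere library (0.0170 to 0.137 FPKM) and on 2 to 11 reads in each embryonic library (0.0389 to 0.190 FPKM). In adult LG it was at 1.44, 0.859 and 0.535 FPKM, on 23, 18 and 27 reads. All 3 adult libraries were above the other 17, but the mean stayed under the filter of 0.5 FPKM, so Lamb3 was not tested in the comparisons below. With no filter it was lower than in adult LG at E17.5 (log2 difference -0.86, limma adjusted p = 0.0043), at E19.5 (-0.74, 0.00926) and at day 7 (-0.82, 4.98e-05).

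Lama3 (ENSMUSG00000024421) set the sphere libraries apart by replicate number. Libraries numbered 2 held 1.29, 2.42, 2.30 and 8.66 FPKM at days 5, 7, 10 and 14. Libraries numbered 1 held 0.876, 0.975, 0.768 and 0.209 FPKM at the same days, and those numbered 3 held 0.769, 0.441 and 0.605 FPKM at days 7, 10 and 14. Number 2 was the highest at each day, and the ratio of day 14 to day 7 was 3.58 in number 2, 0.214 in number 1 and 0.786 in number 3. In tissue Lama3 was at 0.359 to 0.675 FPKM at E17.5, 0.463 to 0.766 FPKM at E19.5 and 0.926, 0.793 and 2.86 FPKM in adult LG, where replicate 3 again stood highest.

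The same libraries differed in other chains. Lamb1 was lowest in number 2 at each of the 4 days (58.6, 65.4, 51.2 and 38.8 FPKM). Lama4, an alpha chain of vessel and mesenchymal basement membranes, was at 0.379, 0.731, 0.721 and 0.363 FPKM in number 2 against 2.03 to 7.52 FPKM in numbers 1 and 3, and the epithelial keratin gene Krt18 was at 130 to 176 FPKM against 689 to 1734 FPKM. What sets the libraries numbered 2 apart was not tested, and the culture results below are followed by those without them.

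**Figure D4:**
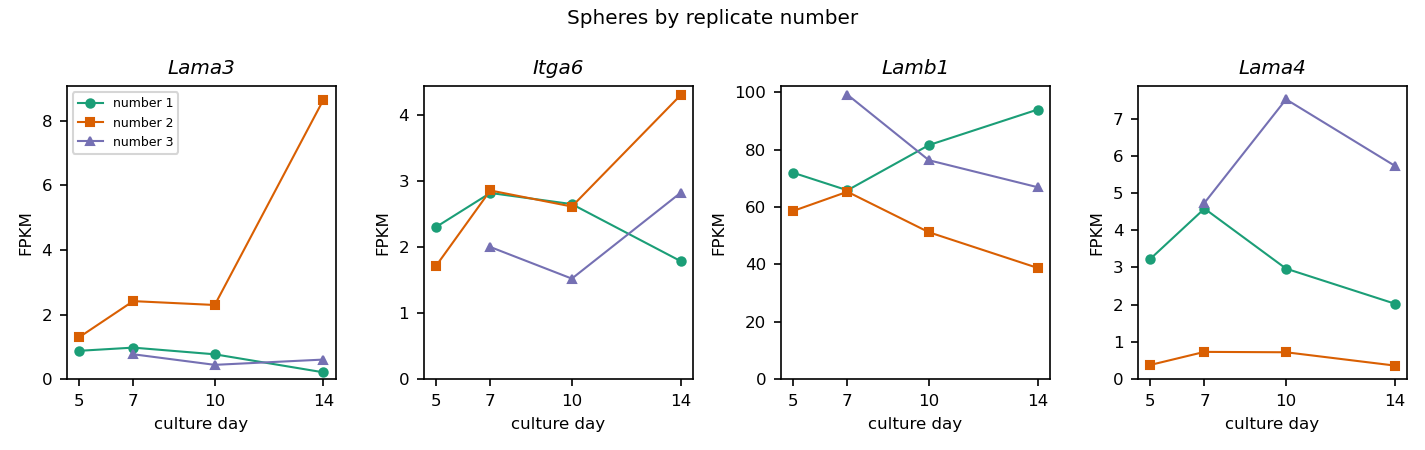
FPKM of Lama3, Itga6, Lamb1 and Lama4 in spheres against culture day, each line joining the libraries of 1 replicate number (number 3 has no day 5 library here). Number 2 is the highest in Lama3 (8.66 at day 14) and the lowest in Lamb1 and Lama4 at every day, whereas the lines of Itga6 cross.

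The integrin subunits were listed at low levels in all 20 libraries. For each, spheres and embryonic LG did not overlap, but how many of all genes separate in this way was not counted. At day 7 against E17.5, 36.3% of all genes tested had a limma adjusted p under 0.05. Itga6 (ENSMUSG00000027111) stood at 2.31 and 1.72 FPKM in the day 5 spheres, and those of day 7 held 2.82, 2.86 and 2.0 FPKM. Day 10 spheres held 2.65, 2.62 and 1.52 FPKM and day 14 spheres 1.79, 4.31 and 2.83 FPKM, on 105 to 346 reads a library. In tissue it was at 0.356, 0.368 and 0.249 FPKM at E17.5, 0.355, 0.481 and 0.523 at E19.5 and 0.689, 1.19 and 2.21 in adult LG, on 15 to 152 reads. Spheres and adult LG were both above all embryonic libraries, and adult LG replicate 3 was as high as several spheres. The 4 culture days overlapped, as did E17.5 and E19.5.

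Itgb4 (ENSMUSG00000020758), the hemidesmosome beta subunit, was at 1.37, 0.820 and 0.844 FPKM at day 7 and ranged from 0.652 to 2.08 FPKM in the 11 sphere libraries (31 to 121 reads) and from 0.118 to 0.523 FPKM in the 9 tissue libraries (2 to 33 reads). Spheres and tissue did not overlap. Itga3 (ENSMUSG00000001507) ranged from 0.491 to 1.85 FPKM in spheres (19 to 88 reads), from 0.241 to 0.454 FPKM in embryonic LG (11 to 25 reads) and was at 0.218, 0.221 and 0.712 FPKM in adult LG (3, 4 and 31 reads). Only adult LG replicate 3 reached the range of the spheres. Itgb1, whose product pairs with those of Itga3 and Itga6, did not exceed 0.277 FPKM in any of the 20 libraries and was at 207 FPKM at passage 10.

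At passage 10 the picture was another one. Itgb4, Itga3 and Itga6 were at 199, 174 and 125 FPKM, on 33260, 23581 and 26915 reads, and each was above 97.2% or more of the 12528 genes with at least 1 FPKM. Lama5, Lamb3 and Lama3 were above 92.7%, 90.2% and 90.1% of these genes, Lamb1 and Lamc1 above 82.5% and 80.3%. The difference from passage 2 has no replicate check, and passage and the making of the table cannot be told apart, since the passage 10 table also listed 111 assembled loci against 11226 in the others.

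Time in culture was compared first. No member passed the test for a slope over culture day among the 7 tested (11 libraries, limma on log2(FPKM + 1), Benjamini-Hochberg adjustment over 15584 genes), where 2.14% of all genes did (101 rising, 233 falling). With the replicate number as a block 783 genes passed, again no member. Itga3 came nearest, with a slope of 0.064 log2 per day (SE 0.018, limma adjusted p = 0.0875), and it passed when the recovered reads were tested with the replicate number as a block (0.12, adjusted p = 0.0402). Lamc1 had a slope of -0.042 (SE 0.019, adjusted p = 0.253) and Lama1 one of 0.043 (SE 0.024, adjusted p = 0.351). Without the libraries numbered 2, 280 genes and no member passed, with slopes of 0.053 for Itga3 (adjusted p = 0.300), 0.059 for Lama1 (0.165) and -0.020 for Lamc1 (0.631). Lama3 was then at -0.054 in place of 0.033 (adjusted p = 0.281 and 0.842). The median slope of the 7 was 0.033 against 0.00 over all genes.

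Day 14 against day 7 gave no member of 7 and 0% of the 15744 genes tested past the threshold with limma, where 1557 genes had an unadjusted p under 0.05 and the smallest adjusted p was 0.335. With the replicate block alone the count stayed at 0, and with the recovered reads and the block 116 genes passed, none of them a member. The log2 differences were 0.46 for Itga3 (95% interval 0.04 to 0.87), 0.33 for Lama1 (-0.13 to 0.79), -0.38 for Lamc1 (-0.78 to 0.02) and -0.26 for Lamb1 (-1.11 to 0.58). That of Lama3 was 0.22 with an interval of -1.70 to 2.13, and -0.42 without the libraries numbered 2. Without them no gene passed, and Itga3 was at 0.43, Lama1 at 0.48, Lamc1 at -0.19 and Lamb1 at -0.03.

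Before birth, the 3 chains of laminin-111 were higher than in the adult LG. Itga6 was lower, but it met the filter through adult LG (1.36 FPKM on average, against 0.324 at E17.5 and 0.453 at E19.5). No support is drawn from the share of Itga6 in these counts. Of 5 members tested at E17.5 against adult LG, Lama1, Lamb1 and Lamc1 were higher, Itga6 was lower and Lama3 did not pass, where 54% of 18578 genes passed. The log2 differences were 3.48 for Lama1 (SE 0.41, limma adjusted p = 0.000165), 2.90 for Lamb1 (SE 0.39, adjusted p = 0.000335), 2.68 for Lamc1 (SE 0.31, adjusted p = 0.000157) and -0.79 for Itga6 (SE 0.22, adjusted p = 0.0154). Lama3 was at -0.68 (SE 0.28, adjusted p = 0.0691), and passed on the recovered reads (-1.61, adjusted p = 0.0158). The median of the 5 was 2.68 against 0.05 over all genes.

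At E19.5, set against the same adult libraries, Lama1, Lamb1 and Lamc1 were again higher and Itga6 lower, where 54.2% of all genes passed. The log2 differences were 2.59 for Lama1 (SE 0.41, limma adjusted p = 0.000912), 2.83 for Lamb1 (SE 0.39, adjusted p = 0.000412) and 2.33 for Lamc1 (SE 0.31, adjusted p = 0.000369). Itga6 was at -0.65 (SE 0.22, adjusted p = 0.0337, and 0.0616 with no filter) and Lama3 at -0.56 (SE 0.28, adjusted p = 0.123). Mesenchyme markers moved with these groups (4719 to 5695 FPKM before birth, 165 to 324 FPKM in the adult). The endothelial sums (141 to 231 and 70.6 to 210 FPKM) overlapped through adult LG replicate 3. Of the endothelial markers, Tek was lower in the adult without overlap (44.6 to 57.8 and 8.36 to 21.7 FPKM). Cdh5 was lower only in its mean, and Emcn was level (17.4, 16.8 and 16.7 FPKM on average at E17.5, at E19.5 and in the adult). Tie1 was higher on average in the adult (48.2, against 24.8 and 35.4 FPKM), as were Pecam1 and Kdr, which did not exceed 0.737 FPKM. The part of these markers in the higher laminin chains was not tested. In the spheres, where both marker sums were at most 1.82 FPKM, Lama1 was at 1.72 to 4.21 FPKM, Lamb1 at 38.8 to 99.2 FPKM and Lamc1 at 36.9 to 63.2 FPKM. Culture and tissue differ in all else as well, so the levels in spheres were not used to judge the part of these markers.

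The adult comparisons depend on scale. When the libraries were scaled to the recovered reads, the median of all genes moved from 0.05 to 0.64 at E17.5 and from 0.09 to 0.58 at E19.5, and the split of higher and lower genes moved from 5405 and 4634 to 8450 and 1913 at E17.5 and from 5637 and 4440 to 8054 and 1841 at E19.5. Relative to these medians the laminin-111 chains remained higher, with log2 differences of 3.62, 3.79 and 3.62 for Lama1, Lamb1 and Lamc1 at E17.5 and of 2.63, 3.61 and 3.17 at E19.5. Itga6 no longer passed (-0.41 and -0.31, adjusted p = 0.253 and 0.393).

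Between E17.5 and E19.5 no member of 5 passed, where 1.74% of genes did. Lama1 was at -0.89 on the log2 scale (SE 0.41, limma adjusted p = 0.359), although its 3 libraries of each stage did not overlap. With the 6 embryonic libraries fitted alone the same difference had an adjusted p of 0.00814, and without adult LG replicate 3 one of 0.00705. The call thus depends on whether that adult library is in the fit. Lamc1 was at -0.35 (SE 0.31), Lamb1 at -0.07 (SE 0.39), Itga6 at 0.13 (SE 0.22) and Lama3 at 0.12 (SE 0.28).

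Spheres were then set against tissue. At day 7 against adult LG, 5 of 7 members were higher, none was lower and Lama3 and Itga3 did not pass, where 47.4% of 18288 genes passed. The log2 differences were 2.27 for Lamb1 (SE 0.37, limma adjusted p = 0.000113), 1.16 for Lama1 (SE 0.34, adjusted p = 0.0108), 1.13 for Lamc1 (SE 0.26, adjusted p = 0.00191), 0.63 for Itga6 (SE 0.24, adjusted p = 0.0419) and 0.60 for Itgb4 (SE 0.17, adjusted p = 0.00991). Itgb4 and Itga3 met the filter through the spheres, where they are high, so no support is drawn from their share in these counts. With no filter, Itgb4 had an adjusted p of 0.0180 and Itga3 one of 0.120. With the 6 libraries of both groups alone, Lamb1 and Lamc1 passed as higher. Lamb3 then met the filter through adult LG, where it is high, and passed as lower (-0.82, adjusted p = 0.0296). Lama1 (adjusted p = 0.101), Itga6 (0.125) and Itgb4 (0.0680) did not pass. Leaving out adult LG replicate 1 or 2 also ended the call of Lama1 (adjusted p = 0.0645 and 0.0627). Itga3 was at 0.37 (SE 0.17, adjusted p = 0.0745) and Lama3 at -0.05 (SE 0.57, adjusted p = 0.953). Scaled to recovered reads, the median of all genes moved from 0.00 to 0.54 and the split from 3813 higher and 4851 lower to 7943 and 2272. Lama1 was then at 1.37, Lamb1 at 3.26, Lamc1 at 2.19, Itga6 at 1.12 and Itgb4 at 0.82, and Itga3 also passed (0.58, adjusted p = 0.0125).

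Against E17.5 LG, which shares the day 7 libraries with the comparison above, 2 of 7 members were lower and 2 higher, where 36.3% of genes passed. Lama1 fell by 2.32 (SE 0.34, limma adjusted p = 4.74e-05) and Lamc1 by 1.55 (SE 0.26, adjusted p = 0.000174), whereas Itga6 was higher by 1.42 (SE 0.24, adjusted p = 0.000213) and Itgb4 by 0.57 (SE 0.17, adjusted p = 0.0179, and 0.0275 with no filter). At E17.5, Itga6 averaged 0.324 FPKM, Itgb4 0.353 FPKM and Itga3 0.344 FPKM, below the filter of 0.5 FPKM. They met it through other groups, chiefly the spheres, so no support is drawn from their share in these counts. Lamb1 was at -0.63 (SE 0.37, adjusted p = 0.207), and passed with the 6 libraries alone (adjusted p = 0.0242). Itga3 was at 0.40 (SE 0.17, adjusted p = 0.0710), and passed with limma-voom on recovered reads (1.17, adjusted p = 0.0264), with the 6 libraries alone (0.0299) and without adult LG replicate 3 (0.0301). Lama3 was at 0.62 (SE 0.57, adjusted p = 0.436).

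**Figure D5:**
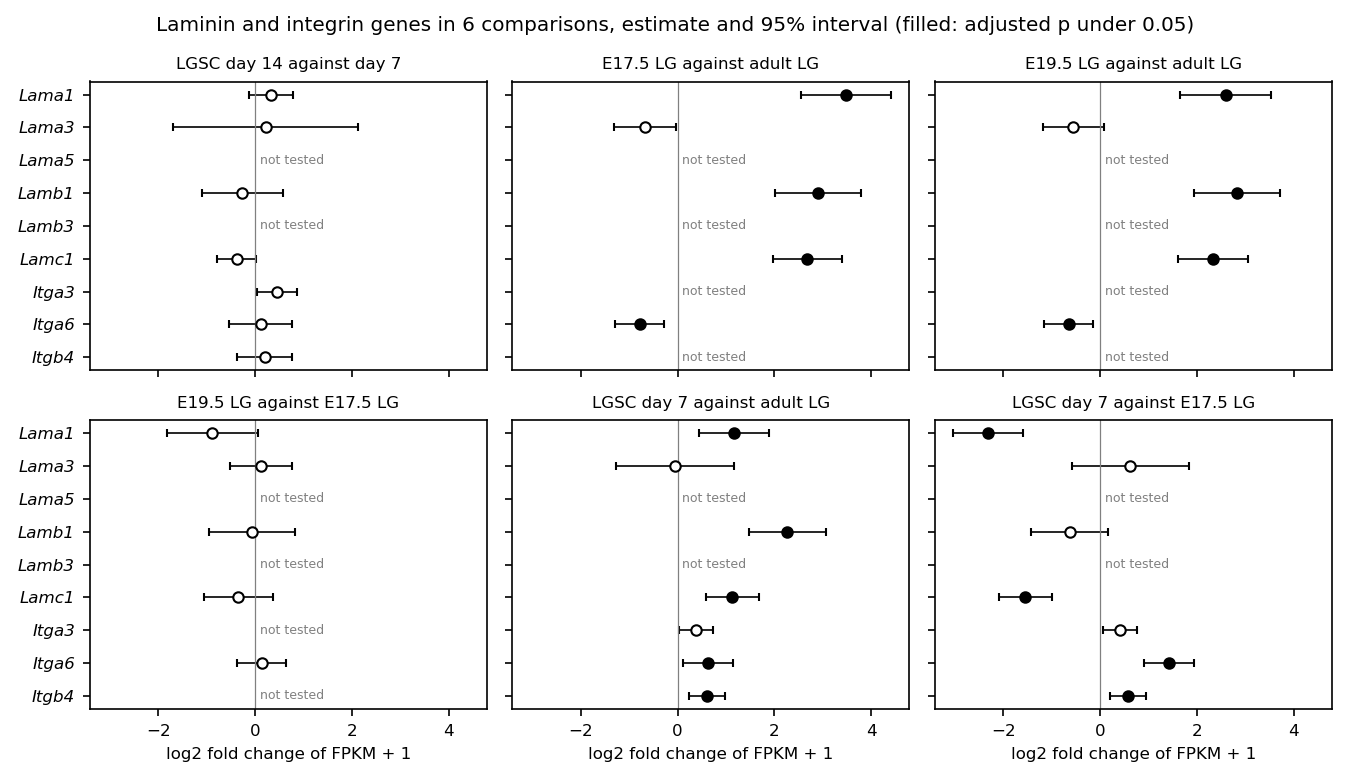
Log2 fold change of FPKM + 1 of the 9 genes in 6 comparisons (points, with 95% intervals from limma; filled points have an adjusted p under 0.05, and genes below the filter are marked as not tested). Lama1, Lamb1 and Lamc1 lie at 2.33 to 3.48 before birth against adult LG, and at day 7 against E17.5 Lama1 (-2.32) and Lamc1 (-1.55) lie left of 0 while Itga6 (1.42) and Itgb4 (0.57) lie right of it.

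Among other laminin chains, Lama4 was higher than in adult LG at E17.5 (47.3 to 56.6 against 3.13 to 11.8 FPKM, log2 difference 2.95, limma adjusted p = 0.000193) and was lower at day 7 than at E17.5 by 3.78 on the log2 scale (adjusted p = 0.000261). Lamc3, a gamma chain known from nerve and retina, was highest in adult LG (8.23 to 19.3 FPKM), lower at E17.5 by a log2 difference of -1.72 (adjusted p = 0.000744, but 0.153 when scaled to recovered reads) and lower at day 7 by one of -3.68 (adjusted p = 1.29e-09). Lamb2, the beta chain of muscle and vessel laminins, differed from adult LG by 0.08 at E17.5 (adjusted p = 0.728), and Lama2, the muscle alpha chain, did not exceed 0.181 FPKM in any library and was not tested.

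Lama1, Lama3 and Lama5 together made up 58.0% ± 25.5 of the summed alpha-chain FPKM at day 7 (SD, n = 3), 25.7% ± 3.57 at E17.5, 15.2% ± 0.666 at E19.5 and 23.7% ± 7.79 in adult LG. With Lama5 listed at 0, this is a share among Lama1 to Lama4. The 6 embryonic libraries differed from the 3 adult ones by -3.24 percentage points (two-sided exact permutation test, p = 0.524), which turned to 0.565 without adult LG replicate 3. In spheres the libraries numbered 2 had the highest share at each day (84.8% to 96.8%, against 32.7% to 68.5% in the others), which follows from their Lama3 and Lama4 levels above.

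Of 25 other basement membrane genes, 18 were tested at E17.5 against adult LG, and 11 were higher, 2 lower and 5 did not pass, where 54% of all genes passed (median log2 difference 1.45 against 0.05 over all genes). Scaled to recovered reads, 13 were higher and 1 lower of 17. Those with the largest differences were Smoc1 (4.83, limma adjusted p = 2.7e-05), Npnt (4.43), which encodes a ligand of the integrin of Itga8, Frem2 (3.79) and Col4a1 (2.95), the collagen IV chain. At E19.5 13 were higher and 2 lower of 18 (54.2% over all genes). At day 7 against adult LG, 6 were higher, 3 lower and 8 did not pass (47.4% over all genes), with Col18a1 at 4.04 (adjusted p = 2.97e-10), Ntn4, which encodes a laminin-related netrin, at 2.57 and Col15a1 at -4.61. At day 7 against E17.5, 3 were higher and 9 lower of 17 (36.3% over all genes), among them Ntn4 (4.87) and Col15a1 (-6.84). Col15a1 met the filter through tissue (20.6 to 158 FPKM, against 0.123 to 1.43 FPKM in spheres), so no support is drawn from its share. Mesenchyme markers, at 0.511 to 1.82 FPKM in spheres, 4719 to 5695 FPKM before birth and 165 to 324 FPKM in the adult, moved with these groups, and their part in these differences was not tested. None of 13 tested passed for the slope over culture day.

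Of the 23 other integrin subunits, 12 were tested at day 7 against adult LG, and 10 were lower, none was higher and 2 did not pass, where 47.4% of all genes passed, and against E17.5 9 were lower and 3 did not pass, where 36.3% did. Scaled to recovered reads, 8 were lower and none higher in each comparison. The largest differences against adult LG were those of the leukocyte subunits Itgax (-4.14) and Itgal (-2.77), followed by Itga1 (-2.47) and Itga9 (-2.36), and against E17.5 that of Itga9 (-5.52). Leukocyte markers were, like Itgax and Itgal, highest in adult LG, and their part was not tested. Their sum was 1.23 to 3.74 FPKM in spheres, 112 to 169 FPKM before birth and 718 to 1442 FPKM in adult LG. Itga9 went the other way in tissue, with 22.4 to 49.5 FPKM before birth and 2.59 to 7.28 FPKM in the adult. Itgax, Itgal, Itga1 and Itga9 met the filter through tissue, where they are high (sphere medians of 0 to 0.211 FPKM). No support is drawn from their share in these counts. At E17.5 against adult LG, 5 were higher and 6 lower of 13 (54% over all genes, and 5 and 2 when scaled to recovered reads). The largest differences were those of Itgax (-3.98), Itga9 (3.16) and Itga8 (2.80). Itgax met the filter there through adult LG (9.23 to 22.8 FPKM, against 0.0432 to 0.405 FPKM before birth).

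Among 13 other laminin receptors and hemidesmosome partners, 9 were tested at day 7 against adult LG, and 5 were higher and 4 did not pass, close to the 47.4% of all genes that passed. Col17a1, the hemidesmosome collagen, was at 1.63 (limma adjusted p = 0.000529), Dag1, which encodes dystroglycan, at 1.12 (adjusted p = 2.7e-05), Sdc4 at 0.82 and Rpsa at 0.60. Col17a1 met the filter through the spheres (0.409 to 4.06 FPKM, against 0 to 0.238 FPKM in tissue), so no support is drawn from its share. Of the 11 genes of this list with at least 10 FPKM at passage 10, 8 were below 10% of that level at day 7, Col17a1 and Rpsa among them. Against E17.5, 5 were higher and 1 lower of 9 (36.3% over all genes), with Sdc4 at 1.97 and Cd151, a tetraspanin partner of laminin-binding integrins, at 1.14.

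The genes whose log2 levels were most like those of 4 members were sought among 10660 genes over the 20 libraries, which all genes share, so that these correlations are given as a description. Lama1 was most like its partner chain Lamc1 (Pearson r = 0.963), then Gpr153 (0.961) and Zcchc24 (0.959). Lamc1 was most like Mpdz (0.970), Lamb1 like Trim35 (0.978) and Itga6 like Rassf5 (0.963).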

How the data were processed

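The 9 genes and all gene lists were chosen with earlier results of these data known. Total RNA was extracted with Trizol, poly(A) RNA was purified from it and NEBNext Ultra libraries were sequenced as 150-bp pairs, for which no strand setting is given, so that reads of overlapping antisense genes cannot be told apart. The submitters' processing notes name CASAVA 1.8, HISAT2 2.0.5 and featureCounts 1.5.0-p3. The authors deposited FPKM values per gene for each library, and how FPKM were made from counts is not given in the sources used here. The notes name build NCBIM37, and GENCODE M21 (GRCm38) was used here only for gene lengths, symbols and promoter positions, the latter from RefSeq.

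Log2(FPKM + 1) was fitted with limma 3.58.1 (R 4.3.3, trend) for each gene averaging at least 0.5 FPKM over the libraries in the fit, with Benjamini-Hochberg adjustment over all genes tested and a threshold of 0.05. The slope used the 11 sphere libraries, comparisons within tissue the 9 LG libraries, and day 7 against tissue all 20. The authors' tool, DESeq2, needs counts, so limma replaced it. Reads were recovered as whole multiples of the FPKM steps (92.6% to 93.6% of low values within 0.01 of a whole number) and were used in alternatives with limma-voom. Same-numbered sphere libraries deviated together (mean r = 0.457, 0.26 to 0.719, over 15 pairs, against -0.217 for other pairs). The main fits of the spheres ignored this pairing, and the replicate number entered only alternative fits, as a block. All 9 genes were named in each comparison, with other laminin chains (1 is not reported here), up to 4 genes of each other list with the largest passing difference and a mean of at least 1 FPKM, and the 3 most alike genes. The fits were tested on simulated data. LGSC day 5 replicate 3 and 2 other LGSC samples (passages 6 and 20) were not analysed here.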

Additional observations from a re-analysis of the deposited data

Results flagged for a closer look

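Signal in a library outside the tests marked 6 of the 9 genes. In the single passage 10 LGSC library, Itgb4 was at 199 FPKM, Itga3 at 174 FPKM, Itga6 at 125 FPKM, Lama5 at 53.9 FPKM, Lamb3 at 43.2 FPKM and Lama3 at 42.6 FPKM, each above its highest value in the 20 other libraries. The passage 10 table differs from the others in its list of assembled loci (111 against 11226) and in 50.5% of its genes with at least 10 FPKM, which were below 10% of that level at day 7 of passage 2. Passage and the making of the table cannot be told apart.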

How the results depend on the processing

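Alternatives were another pseudocount (0.1), no filter on low values, scaling to recovered reads, limma-voom on recovered reads, the replicate block, fits of the groups alone and leaving out each library. Over these, 806 of 855 values of single genes kept their side of the threshold, 32 fell below it and 17 passed it. No called value of a single gene changed sign. Some values that did not pass changed direction, such as the slope of Lama3 (-0.070 to 0.088 with 1 library left out).

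The count of genes with a slope over culture day was 334, and it was 82 with no filter, 783 with the replicate block, 1186 with limma-voom and the block (chosen after seeing the data), 0 with days 7, 10 and 14 alone and 11 to 384 with 1 library left out, the lowest without LGSC day 5 replicate 1. With limma-voom and the block, 1 of the 9 genes (Itga3) passed for the slope and 116 genes passed at day 14 against day 7. The count at E19.5 against E17.5 was 323, and it was 162 with the pseudocount of 0.1, 186 scaled to recovered reads, 100 with the replicate block, 2144 with the 6 libraries alone and 50 to 1736 with 1 library left out, the highest without adult LG replicate 3 and the lowest without E17.5 LG replicate 1. Of the 9 genes, 1 (Lama1) passed there with the 6 libraries alone, and 0 to 1 with 1 library left out. At day 7 against adult LG, 3 passed with the 6 libraries alone. Lamb1 and Lamc1 were higher, and Lamb3, which met the filter through adult LG, was lower. With 1 library left out, 3 to 6 passed (3 without LGSC day 7 replicate 1 or adult LG replicate 1 or 2). Over all genes, 7504 to 9065 passed in those fits, against 8664 of 18288 in the main fit. No support is drawn from these counts of members.

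Itga6 was the least stable of the called genes. Its call at day 7 against adult LG was lost in 11 of 20 fits with 1 library left out, with no filter (adjusted p = 0.0726) and with limma-voom (0.0873). At E19.5 against adult LG it was lost in 6 of 9 such fits, with no filter (0.0616) and with the 6 libraries alone (0.0774). Itgb4 lost its call against E17.5 without LGSC day 7 replicate 1 (0.0919) or E17.5 LG replicate 1 (0.0799), and against adult LG without LGSC day 7 replicate 1 (0.0547). Itga3 passed at day 7 with the pseudocount of 0.1 against adult LG (0.0346) and E17.5 (0.0443). Lama3 passed at E19.5 against adult LG with limma-voom (-1.25, 0.0431). The cause of these changes was not tested. The difference in the alpha-chain share ranged from -7.22 to 0.565 percentage points with 1 library left out, and changed sign without adult LG replicate 3. Replicate numbers did not pair the tissue libraries (mean r of -0.06 to 0.035), and the block on log2 FPKM changed no call of the 9 genes in any comparison.

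Depth limits Lamb3 most, with 1 to 27 reads in each of the 20 libraries, and Itga3 in adult LG, with 3 to 31 reads.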
